A study of Mus musculus with 31 samples.

Results

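The genes described are 9 factors of nonsense-mediated mRNA decay (NMD): Smg1, Smg5, Smg6, Smg8, Smg9, Upf1, Upf2, Upf3a and Upf3b. They were taken by name, as parts of the NMD machinery, from the 20436 gene symbols counted in mouse cortex. The pathway was picked with earlier results of these data known, including those for Smg1. All 9 passed the filter on low counts for mRNA, for ribosome footprints (the stretches of mRNA that ribosomes shield from nuclease) and for translational efficiency (TE, the footprint change beyond the mRNA change). Animals were 29 to 34 days old and had 1 of 4 genotypes. WT mice were wild type, FXS mice lacked Fmr1, S6K1 mice lacked Rps6kb1, which encodes the ribosomal protein S6 kinase S6K1, and DKO mice lacked both genes. There were 16 mRNA libraries, 4 per genotype, and each of the labelled batches 5 to 8 held every genotype once. There were 15 footprint libraries (WT 4, FXS 5, S6K1 3, DKO 3) in batches 1 to 4. Batch 1 consisted of 1 S6K1 and 1 DKO library, batch 2 lacked DKO, batch 4 lacked S6K1, and batch 3 had all 4 genotypes. The labels name no promoter, Cre line or sex, and do not say whether libraries came from separate animals or whether both assays share animals. The p-values therefore measure the spread between these libraries, which may be technical.

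NMD destroys mRNAs on which a ribosome stops at a premature termination codon, and it also sets the level of many normal transcripts. The helicase UPF1 is phosphorylated by the kinase SMG1, which is held in a complex with SMG8 and SMG9. UPF2 and the UPF3 proteins link UPF1 to exon junction complexes left downstream of the stop codon. SMG6 then cuts the mRNA, while SMG5 helps to bring in decapping and deadenylation. Mutations in human UPF3B are a known cause of X-linked intellectual disability, and the Fmr1 product FMRP, an RNA-binding protein of neurons, has been reported to bind UPF1. Several NMD factor mRNAs are themselves known NMD targets.

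Per RefSeq annotation on GRCm38.p6, the genes lie apart, on chromosomes 2 (Upf2, 5951447 to 6056703), 3 (Smg5, 88336259 to 88362338), 7 (Smg1, 118131308 to 118244437, and Smg9, 24397517 to 24422777), 8 (Upf1, 70331493 to 70353423, and Upf3a, 13785055 to 13798723), 11 (Smg6, 74925854 to 75164448, and Smg8, 87077732 to 87086777) and X (Upf3b, 37091678 to 37110471). Smg8 is 532.8 kb and Smg6 11334.4 kb from Rps6kb1 on chromosome 11, the gene disrupted in the S6K1 and DKO mice. Fmr1, lacking in the FXS and DKO mice, is on X (68678536 to 68717963), as is Upf3b. Any part of linkage to the targeted genes was not tested.

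Because Rps6kb1 acts downstream of mTORC1, the start of each transcript was read for the 5′ terminal oligopyrimidine (TOP) form that marks many mTORC1-controlled mRNAs, here a C at the first base followed by at least 4 bases that are each C or T on the transcript strand. The sequences below run 5′ to 3′ across the annotated RefSeq start, with 15 bases before it in lower case and the first 15 transcribed bases in capitals. Smg1 (chr7:118243623-118243652, minus strand) and Smg9 (chr7:24399613-24399642, plus strand) are shown as the members with called changes, and Rps6 (chr4:86857353-86857382, minus strand), a ribosomal protein gene, as an example of the TOP form.
Smg1: ggcgggcggagccggGAGGCGGGGAAGCCG
Smg9: cagcccgcggcgcatGCGCCGAGCTAGCAG
Rps6: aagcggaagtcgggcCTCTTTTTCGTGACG
A single RefSeq start was read for each of the 9 members, and any other starts were not read. The starts read for Smg1 and Smg9 lie inside the annotated gene spans. All 9 starts read begin with G, so 0 of 9 have this form. It was found at 823 of 32851 annotated starts (2.51%) and at 13 of 70 ribosomal protein gene starts (18.6%), so annotated starts miss it in most genes of the class best known for it.

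Library totals ran from 12.1 to 17.3 M counts for mRNA and from 16.6 to 34.9 M for footprints, and no member had fewer than 288 counts in any mRNA library. Levels below are CPM, counts scaled by library size with the TMM correction of edgeR, and changes are log2 fold changes ± SE. Footprints of the targeted genes followed the labels. Mean Fmr1 footprints were 117 CPM in WT and 133 in S6K1, against 7.85 in FXS and 10.5 in DKO, and mean Rps6kb1 footprints were 28.9 in WT and 32.5 in FXS, against 10.2 in S6K1 and 11.6 in DKO. Mean Fmr1 mRNA was 67.6 CPM in WT, 72.8 in S6K1, 16.4 in FXS and 15.3 in DKO. Rps6kb1 mRNA differed less, with means of 46.4 (WT) and 45.4 (FXS) against 33.6 (S6K1) and 32.8 (DKO), and libraries of S6K1 (28.2 to 43.7) and DKO (28.5 to 39.6) overlapped those of WT (39.5 to 55.4). Neuron markers were abundant (6 genes summing to 4582 to 5744 CPM of mRNA in WT and 5028 to 6424 in DKO) and 0 of them were absent, with 1 of 6 called higher in DKO mRNA and 1 of 6 called lower in DKO TE. In DKO against WT, footprints of all 6 oligodendrocyte markers had a lower estimate, with 2 of 6 called, and their sum was 2572 to 3692 CPM in WT and 1749 to 2513 in DKO. Footprints of 2 of 6 were also called lower in FXS against WT. In S6K1 against WT 0 of 6 were called, with a median footprint estimate of -0.46. Oligodendrocyte marker mRNA did not fall with the footprints: in DKO against WT 0 of 6 were called, with a median of 0.05. Its sum was 1772 to 2851 CPM in WT and 1686 to 3070 in DKO. In DKO against WT 0 of 4 microglia, 0 of 4 astrocyte and 0 of 3 endothelium markers were called in any measure. In bulk cortex, fewer cells of a type and less RNA per cell cannot be told apart, and the part of cell composition in the results below was not tested.

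Smg1 mRNA was the member that fell. In WT it stood at 196.3, 138.7, 150.9 and 166.6 CPM in batches 5 to 8, and in FXS at 193.8, 127.9, 144.6 and 179.5. In S6K1 the values were 153.0, 121.3, 129.1 and 152.5, and in DKO 165.2, 103.6, 106.6 and 117.5. DKO was below WT and below FXS in every batch, although the groups overlap when batches are ignored, since batch 5 was high in all 4 genotypes. Within batches, DKO minus WT was -0.25, -0.42, -0.50 and -0.50, and DKO minus FXS was -0.23, -0.30, -0.44 and -0.61. Smg1 mRNA was lower in DKO than in WT by edgeR (-0.41 ± 0.071, 0.751 times the WT level, adjusted p = 0.00343). Without batch 5 the value was -0.48 (adjusted p = 0.00360). With no batch term the estimate was -0.40, but the adjusted p was 0.398. Endothelium markers had a median mRNA estimate of -0.37 in DKO, -0.38 in S6K1 and 0.00 in FXS, each against WT. In that order, 2, 1 and 0 of 3 had unadjusted p under 0.05 by edgeR (22.35%, 7.37% and 12.72% of all genes). Their summed mRNA was 13.4 to 62.5 CPM in WT and 10.2 to 39.6 in DKO. Lower DKO minus WT mRNA estimates were found for 2 choroid plexus markers (median -0.91) and 1 blood marker (-0.77), with 0 called. Medians of the other marker sets lay between -0.11 (striatum) and 0.11 (neuron). The part of any marker set in the Smg1 difference was not tested.

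**Figure D1:**
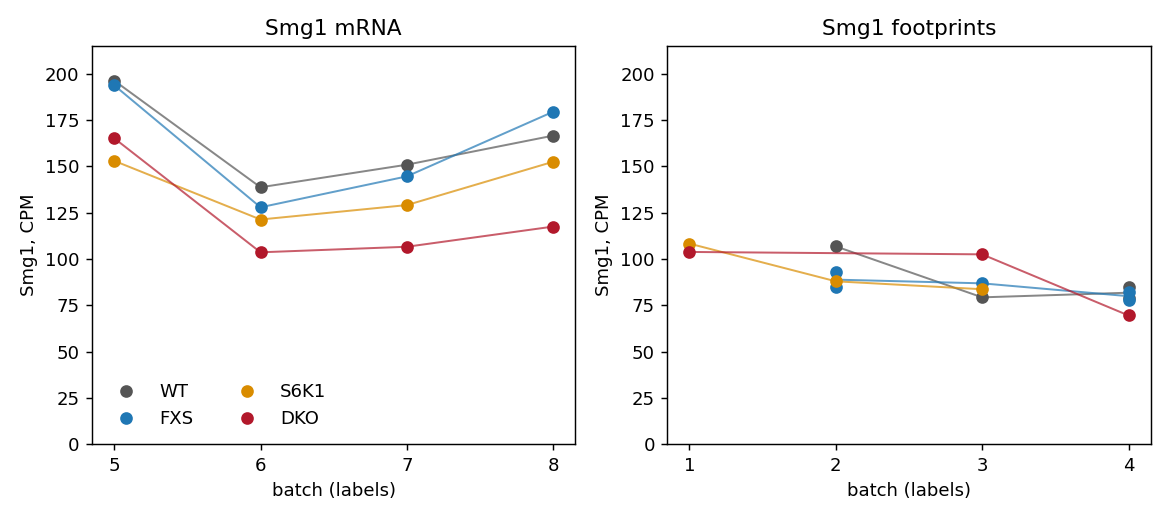
Smg1 level in CPM (vertical axes) by labelled batch (horizontal axes), for mRNA (left) and footprints (right); each point is 1 library, and lines join the mean of a genotype across the batches that hold it. In each mRNA batch the DKO point lies below WT and FXS, whereas DKO footprints were 102.5 CPM in batch 3, above WT, and 69.51 in batch 4, below WT.

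Smg1 was 1 of 4 genes called in mRNA between DKO and FXS (-0.39 ± 0.071, adjusted p = 0.0389), 0.0281% of the 14215 tested. This call was lost in 7 of 8 fits that left out 1 library of either genotype, with adjusted p up to 0.226, while the estimate stayed between -0.48 and -0.34. In S6K1, Smg1 mRNA was below WT in 4 of 4 batches, by -0.36 to -0.13, and the fitted value of -0.22 ± 0.071 had adjusted p = 0.534. The FXS value was -0.02 ± 0.070. DKO minus S6K1 was -0.19 ± 0.071 (adjusted p = 0.212), with 3 of 4 batches lower. The contrasts with WT share the WT libraries. The difference between the effect of Fmr1 loss without S6K1 and its effect with S6K1, the interaction, was -0.17 for Smg1, with a 95% interval from -0.38 to 0.04.

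The partners of Smg1 in the kinase complex gave other values. Smg8 mRNA was 23.9 to 31.7 CPM in WT, 25.0 to 33.3 in FXS, 30.1 to 36.3 in S6K1 and 26.6 to 33.2 in DKO, and its DKO minus WT estimate was 0.06 ± 0.092. Of the 3 mutants against WT, S6K1 had the largest Smg8 mRNA estimate (0.17 ± 0.092, adjusted p = 0.716). The Smg8 mRNA interaction was of similar size, at -0.17 ± 0.130. Smg9 mRNA was 30.53, 42.99, 42.47 and 41.21 CPM in WT and 36.40, 47.77, 51.66 and 43.91 in DKO. In each batch the DKO library was the higher, by 0.09 to 0.28, and the fitted difference of 0.19 ± 0.087 missed the threshold (adjusted p = 0.189). FXS and S6K1 lay between them on average, at 41.1 CPM ± 4.23 (SD, n = 4) and 42.1 ± 6.38.

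Upf1, the helicase at the centre of the pathway, had its lowest mRNA mean in WT. The libraries of batches 5 to 8 held 53.81, 59.48, 59.96 and 70.52 CPM in WT and 62.03, 65.00, 73.40 and 70.21 in FXS. S6K1 had 63.56, 79.25, 69.80 and 83.18, and DKO 62.83, 76.99, 73.81 and 72.62. S6K1 and DKO were above WT in 4 of 4 batches, and FXS in 3 of 4. The DKO minus WT value was 0.23 ± 0.072 with adjusted p = 0.0609, and the S6K1 minus WT value was 0.28 ± 0.073 with adjusted p = 0.419. Neither passed in the edgeR fit. DESeq2 put the DKO value past the threshold (adjusted p = 0.0361), as did leaving out the batch 8 library of WT (0.0335) or of DKO (0.0454). In the authors' deposited table the Upf1 value was 0.23 with adjusted p = 0.0440, and the Smg1 value was -0.42 with adjusted p = 1.65e-05.

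Upf2, the scaffold between UPF1 and the UPF3 proteins, stood at 73.53, 72.10, 77.12 and 66.46 CPM of mRNA in WT and 72.43, 59.53, 60.32 and 56.27 in DKO. DKO was lower in 4 of 4 batches, by -0.35 to -0.02, and the fitted value was -0.22 ± 0.079 (adjusted p = 0.0961). Against S6K1, where 1 library of batch 5 reached 92.70 CPM, DKO was lower by -0.36 to -0.25 in 4 of 4 batches (fitted -0.31 ± 0.079, adjusted p = 0.0617). By DESeq2 that Upf2 difference passed, at adjusted p = 0.0204. Upf3b mRNA was 27.38, 30.37, 29.23 and 23.94 CPM in WT and 26.80, 22.66, 21.69 and 24.19 in DKO. The difference between these groups came from batches 6 and 7 (-0.42 and -0.43), with -0.03 in batch 5 and 0.01 in batch 8, and the fitted value was -0.21 ± 0.092 (adjusted p = 0.169). FXS libraries of Upf3b held 22.8 to 24.5 CPM (-0.22 ± 0.092 against WT, adjusted p = 0.317). Its paralog Upf3a ranged from 74.0 to 100.9 CPM over all genotypes, with a DKO minus WT value of 0.03 ± 0.076.

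The 2 factors that act on the marked mRNA varied little. Smg5, the adaptor, ranged from 120.6 to 151.6 CPM of mRNA over the 16 libraries, and its DKO minus WT value was 0.05 ± 0.063. Smg6, the endonuclease, ranged from 48.6 to 59.2 CPM, with 0.03 ± 0.074. The 95% intervals of these differences, -0.08 to 0.18 for Smg5 and -0.12 to 0.18 for Smg6, exclude a change the size of the Smg1 estimate.

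**Figure D2:**
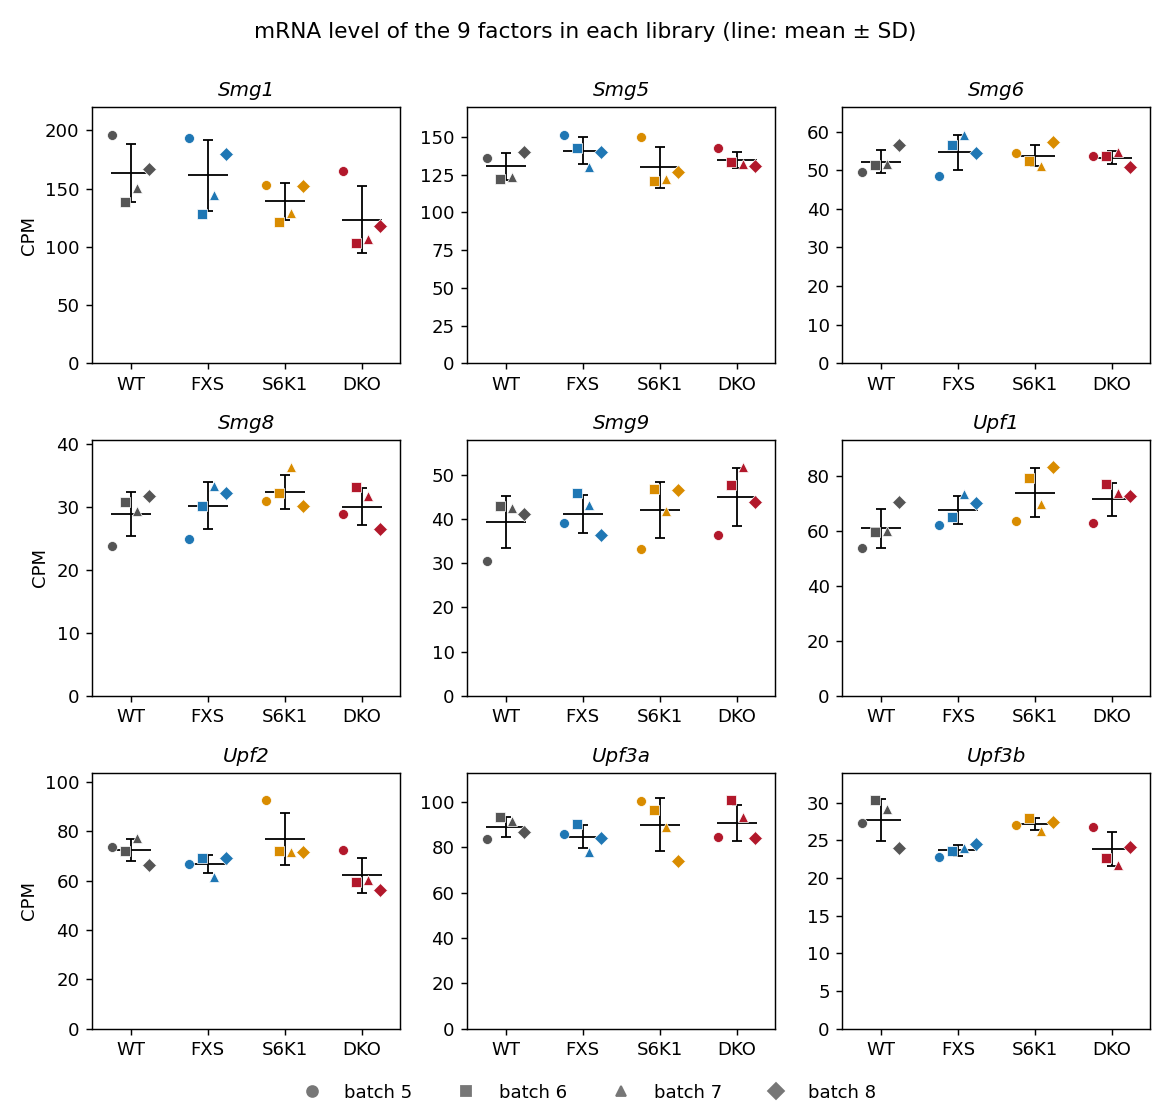
mRNA level in CPM (vertical axes, from 0) of each factor by genotype; each point is 1 library, its shape gives the batch, and the lines give mean ± SD of 4 libraries. Smg1 falls from 163 CPM in WT to 123 in DKO, and its batch 5 library is the highest in each genotype; Smg5 and Smg6 means stay close together.

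In the single mutants no member passed in mRNA. Against WT, the FXS values not yet given were 0.11 ± 0.063 for Smg5, 0.07 ± 0.074 for Smg6, 0.06 ± 0.092 for Smg8, 0.08 ± 0.087 for Smg9, 0.16 ± 0.072 for Upf1, -0.12 ± 0.079 for Upf2 and -0.07 ± 0.076 for Upf3a. The S6K1 values were -0.01 ± 0.064 for Smg5, 0.05 ± 0.074 for Smg6, 0.10 ± 0.088 for Smg9, 0.09 ± 0.079 for Upf2, 0.01 ± 0.076 for Upf3a and -0.03 ± 0.092 for Upf3b. In DKO against FXS, Upf2 (-0.11 ± 0.079) and Smg9 (0.12 ± 0.086) bounded the members other than Smg1. In DKO against S6K1 the Upf3b value was -0.19 ± 0.092, and the others apart from Smg1 and Upf2 lay between -0.11 for Smg8 and 0.09 for Smg9.

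Counted over mRNA contrasts, 1 of 9 members was called in DKO against WT (Smg1, lower), where 5.23% of all genes tested were called. In DKO against FXS 1 of 9 was called (Smg1, lower), where 0.0281% were. Against the first of these backgrounds, 1 call in 9 does not set the members apart. The second count rests on Smg1 alone, whose results were known when the pathway was picked, so it does not set them apart either. In FXS against WT 0 of 9 were called (background 0.155%), in S6K1 against WT 0 of 9 (0.0211%), in DKO against S6K1 0 of 9 (0.387%) and in the interaction 0 of 9 (0%). An unadjusted p under 0.05 was found for 5 members in DKO against WT (22.35% of all genes), 2 in FXS against WT (12.72%), 2 in S6K1 against WT (7.37%), 1 in DKO against FXS (9.81%), 2 in DKO against S6K1 (14.8%) and 0 in the interaction (3.496%). The median absolute change of the members in DKO against WT was 0.19, and that of all genes 0.13. By DESeq2, 2 of 9 were called in DKO against WT, where 1085 of 10908 genes with an adjusted p were called, and 1 in DKO against S6K1, where 354 of 9254 were.

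Smg1 footprints showed no clear fall with the mRNA in DKO. Within batches, their DKO minus WT value was 0.37 in batch 3 and -0.23 in batch 4. WT libraries held 106.8 CPM in batch 2, 79.29 in batch 3 and 84.83 and 78.77 in batch 4. FXS libraries held 92.77 and 84.93, 86.85, and 82.03 and 77.81 in the same batches. S6K1 libraries held 108.3 in batch 1, 87.95 in batch 2 and 83.66 in batch 3, and DKO libraries 103.8 in batch 1, 102.5 in batch 3 and 69.51 in batch 4. The genotypes overlapped fully. DKO minus WT was -0.04 ± 0.112, and it rested on 1 DKO library at a time: 0.12 without that of batch 4 and -0.22 without that of batch 3. Its 95% interval, -0.28 to 0.20, does not hold the mRNA estimate, and the test of the gap between the assays is the TE value given further on.

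Smg9, in contrast, was the member whose footprints stood lowest against WT. WT libraries held 65.12, 63.64, 72.50 and 73.98 CPM, S6K1 libraries 43.61, 53.32 and 57.76, and DKO libraries 42.39, 53.61 and 61.90. Every S6K1 and DKO library was below every WT library, and FXS libraries, at 51.3 to 72.7 CPM, overlapped WT. The lowest S6K1 and DKO values came from batch 1, which has no WT library. With batch in the model, it enters contrasts with WT only indirectly, through its difference between DKO and S6K1. Within batches 3 and 4, DKO minus WT was -0.25 and -0.24. The fitted Smg9 value was -0.24 ± 0.085 (adjusted p = 0.188) for DKO, -0.18 ± 0.087 (adjusted p = 0.585) for S6K1 and -0.15 ± 0.068 (adjusted p = 0.480) for FXS, all against the same WT libraries.

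Upf3b was the only other member without overlap: WT footprints were 20.81, 21.49, 25.24 and 19.98 CPM and DKO footprints 31.90, 27.04 and 27.97. The higher DKO level held in batches 3 and 4 (0.33 and 0.32), and the fitted value was 0.24 ± 0.119 (adjusted p = 0.310). Groups without overlap were common among all genes, 16.3% of footprints in DKO against WT (2 of 9 members) and 9.91% in S6K1 against WT (1 of 9). Upf2 footprints were 77.09, 60.66, 65.35 and 54.77 CPM in WT, and 92.74, 87.67 and 66.74 in DKO, for a fitted value of 0.19 ± 0.124. Upf1 footprints were 149.2 to 191.0 CPM in WT. In batch 1 Upf1 stood at 122.6 in S6K1 and 116.8 in DKO, and in the later batches these genotypes held 172.8 to 186.0. The Upf1 DKO minus WT value was 0.08 ± 0.085. Fitted DKO minus WT values of the remaining footprints were 0.07 ± 0.083 for Smg5, 0.15 ± 0.112 for Smg6, 0.03 ± 0.085 for Smg8 and 0.08 ± 0.109 for Upf3a.

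**Figure D3:**
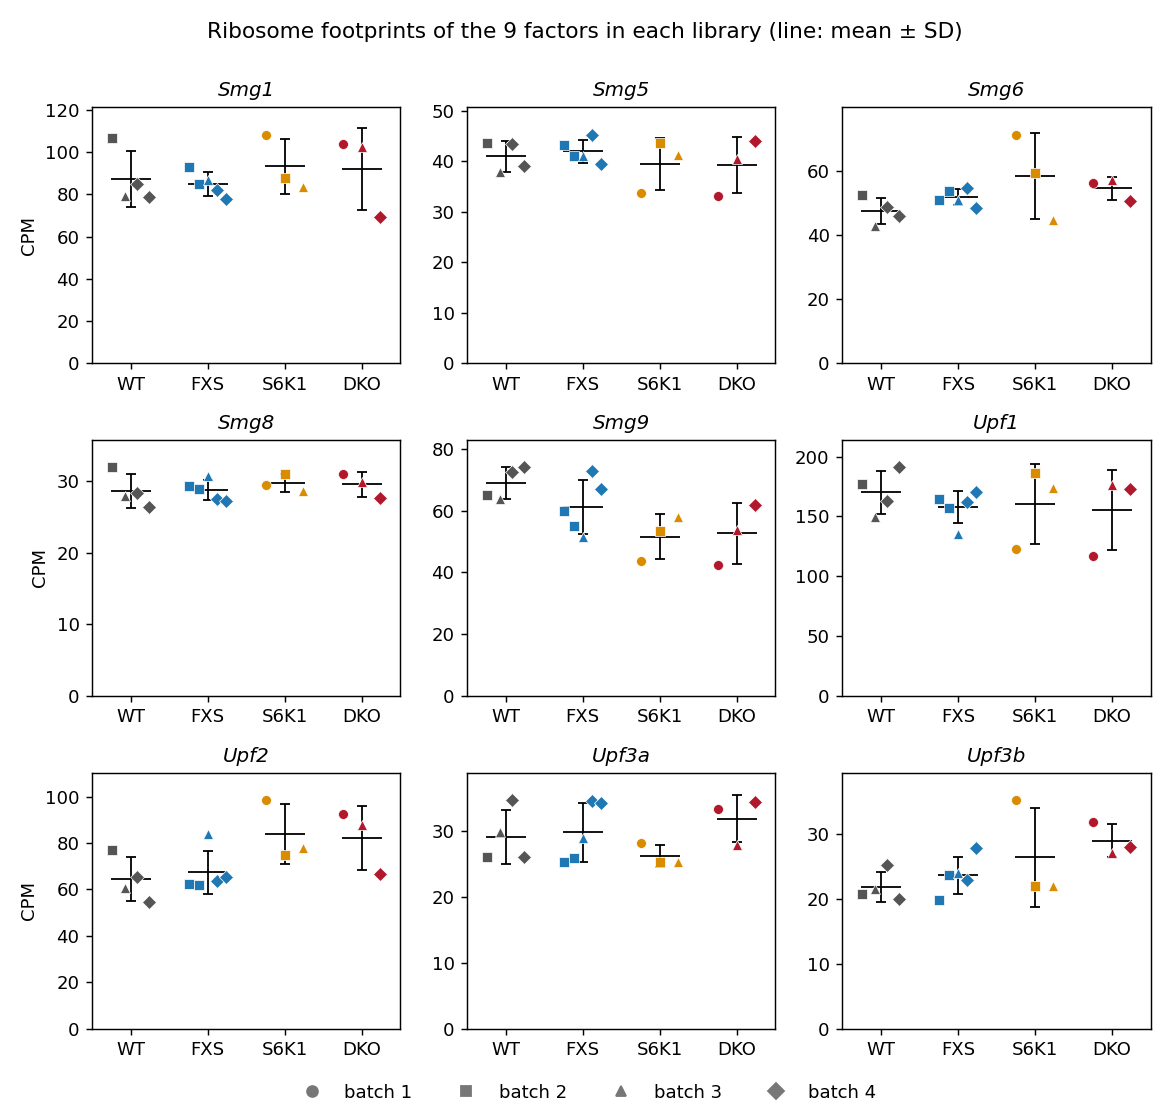
Footprint level in CPM (vertical axes, from 0) of each factor by genotype; each point is 1 library, its shape gives the batch, and lines give mean ± SD. The batch 1 libraries (circles, S6K1 and DKO only) hold the lowest Smg9, Upf1 and Smg5 values and the highest Upf3b and Upf2 values of the 15 libraries; Smg9 is lower in every S6K1 and DKO library than in any WT library.

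In footprints 0 of 9 members were called in any contrast by edgeR, and 0 by DESeq2 or limma voom. The backgrounds were 0.165% in FXS against WT, 0.00717% in S6K1 against WT, 0.366% in DKO against WT, 0.0143% in DKO against FXS, 0.00717% in DKO against S6K1 and 0% in the interaction. An unadjusted p under 0.05 was found for 1 member each in FXS against WT (9.87% of all genes), DKO against WT (17.06%) and DKO against FXS (6.19%), and for 0 in S6K1 against WT (8.74%), DKO against S6K1 (8.67%) and the interaction (3.07%). Footprint values of the members ran from -0.15 (Smg9) to 0.13 (Upf3b) in FXS against WT, from -0.18 (Smg9) to 0.20 (Smg6) in S6K1 against WT and from -0.06 (Smg9) to 0.17 (Upf3a) in DKO against S6K1. In DKO against FXS they ran from -0.09 (Smg9) to 0.20 (Upf1, adjusted p = 0.762). The median absolute footprint change of the members in DKO against WT was 0.08, and that of all genes 0.15. Neither this comparison nor that in mRNA was matched for count level.

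TE sets these footprint and mRNA changes against each other in 1 model. Smg9 was the member called: in DKO its TE was lower than in WT by -0.44 ± 0.122 on the log2 scale (adjusted p = 0.0400), 0.737 times the WT value, from a higher mRNA estimate and a lower footprint estimate. The call sits at the threshold. It held in 6 of 15 fits without 1 library, and adjusted p rose to 0.152 without the batch 3 DKO footprint library and to 0.0615 without batch 5. The estimate stayed between -0.58 and -0.39 in every alternative. In the authors' deposited table the Smg9 value was -0.43 with adjusted p = 0.185, and no member had an adjusted p under 0.05 for TE there. Oligodendrocyte markers moved the same way in this contrast, with TE of 4 of 6 called lower (median -0.66), and their part in the Smg9 value was not tested.

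Smg1, Upf2 and Upf3b had higher TE estimates in DKO than in WT, each with a negative mRNA estimate, called for Smg1 and not for Upf2 or Upf3b. Upf3b was at 0.46 ± 0.148 (adjusted p = 0.0667), Upf2 at 0.41 ± 0.147 (0.0895) and Smg1 at 0.37 ± 0.132 (0.0886). None of these passed in the main fit. Upf3b passed by DESeq2 (0.0399) and without batch 1 (0.0415). The Smg1 TE value rested on the batch 3 DKO footprint library, without which it was 0.19 (adjusted p = 0.484), and without that of batch 4 it was 0.54 (adjusted p = 0.0483). The other TE values in DKO against WT were -0.16 ± 0.109 for Upf1, 0.12 ± 0.131 for Smg6, 0.05 ± 0.129 for Upf3a, 0.02 ± 0.097 for Smg5 and -0.03 ± 0.124 for Smg8. TE subtracts the mRNA change, so a lower mRNA estimate raises TE, and the mRNA and TE values of a gene are not separate results.

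**Figure D4:**
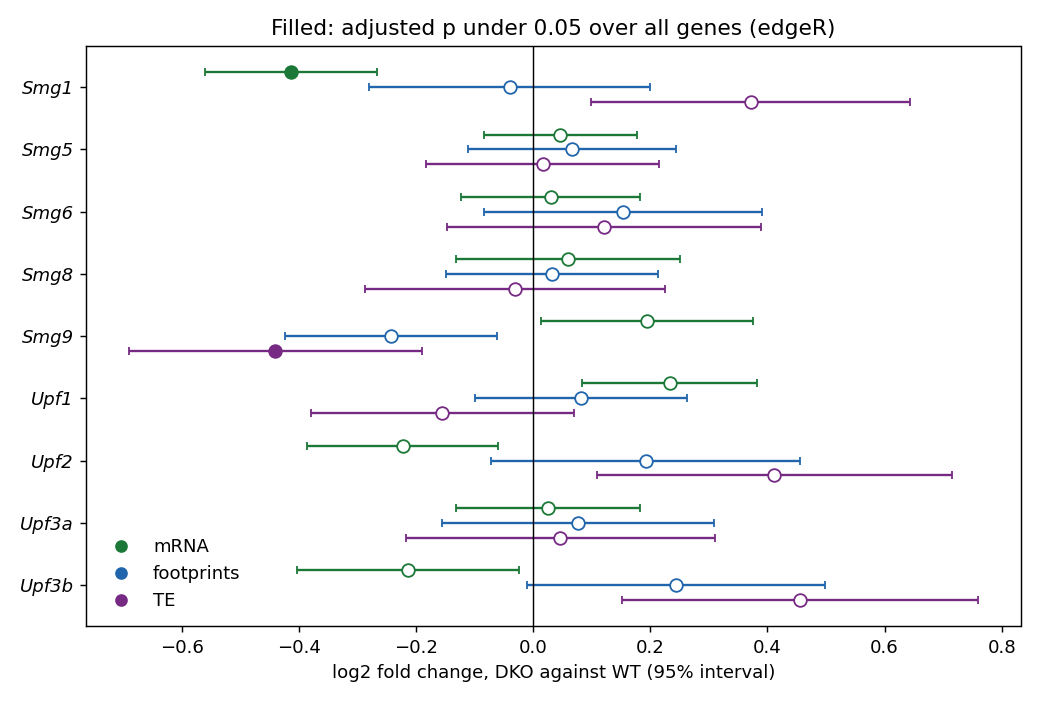
Log2 fold change of DKO against WT (horizontal axis) with 95% interval for each factor (vertical axis) in mRNA, footprints and TE; filled circles have adjusted p under 0.05 over all genes by edgeR. The filled circles are Smg1 mRNA at -0.41 and Smg9 TE at -0.44.

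In FXS against WT the TE estimates that stood furthest from 0 were Upf3b at 0.35 ± 0.135, Upf1 at -0.28 ± 0.098 and Smg9 at -0.24 ± 0.110, with adjusted p of 0.279, 0.240 and 0.347. For Smg9 in S6K1 the value was -0.29 ± 0.124 (adjusted p = 0.631), so its TE estimate was negative in all 3 mutants, which share the WT libraries. In DKO against FXS the widest TE value was that of Smg1 (0.43 ± 0.130, adjusted p = 0.492), and in DKO against S6K1 that of Upf2 (0.32 ± 0.149, adjusted p = 0.322). Members called in TE numbered 1 of 9 in DKO against WT (background 4.85%) and 0 of 9 in S6K1 against WT (0.0293%), FXS against WT (0.0952%), DKO against FXS (0.0146%), DKO against S6K1 (0.00732%) and the interaction (0%). An unadjusted p under 0.05 was found for 4 members in DKO against WT (24.9% of all genes), 3 in FXS against WT (13.4%), 1 in S6K1 against WT (7.51%), 1 in DKO against FXS (8.36%), 1 in DKO against S6K1 (14.6%) and 0 in the interaction (4.14%).

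Whether losing Fmr1 acts differently without S6K1 was asked by the interaction, and 0 members passed in any measure. The mRNA values ran from -0.20 for Upf1 (95% interval -0.41 to 0.01) to 0.08 for Upf3a. The footprint values ran from -0.16 for Smg6 to 0.13 for Smg1, and the TE values from -0.07 for Smg6 to 0.31 for Smg1 (95% interval -0.06 to 0.67). The Smg1 intervals include 0 in mRNA, footprints and TE, and the TE interval also includes values as large as the Smg1 TE estimate in DKO against WT.

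The factors differed more from each other in footprints per mRNA than any did between genotypes. This ratio of footprint CPM to mRNA CPM has gene length in both parts, but differences in coverage between the assays were not checked. In WT the ratio was 2.78 for Upf1, at the 95.8th percentile of 13654 genes, and 1.74 for Smg9 (86.4th). Smg8 (0.987), Smg6 (0.906), Upf2 (0.890) and Upf3b (0.786) lay in the middle, between the 50.2nd and 61.8th percentiles, with SEs on the log2 scale of 0.083 to 0.126, so the order among neighbours there is not resolved. Smg1 was at 0.535 (32.4th), and Upf3a (0.326) and Smg5 (0.313) were lowest, closer to each other than either SE. Upf1 kept the highest ratio of the 9 in FXS (2.32), S6K1 (2.19) and DKO (2.16), and Smg5 or Upf3a the lowest. Smg9 was at 1.48 in FXS, 1.24 in S6K1 and 1.16 in DKO. In DKO, Upf2 (1.32) and Upf3b (1.21) had ratios above that of Smg9, with log2 SEs of 0.170 for Upf2, 0.105 for Upf3b and 0.178 for Smg9, whereas in WT both were below it. These ratios carry no batch term, and the S6K1 and DKO means include batch 1.

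**Figure D5:**
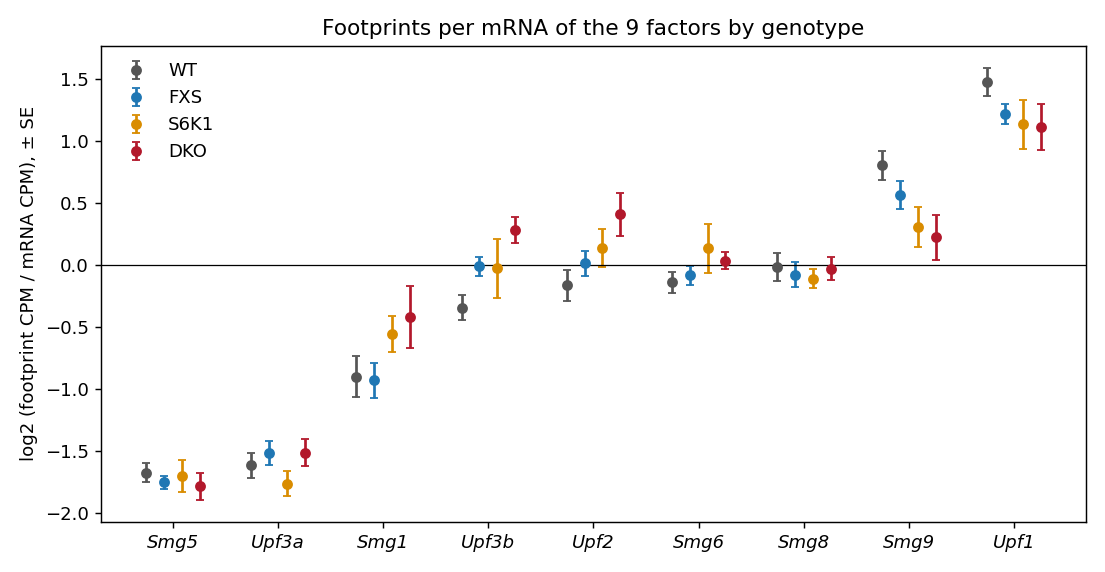
Log2 of footprint CPM over mRNA CPM (vertical axis) with SE for each factor (horizontal axis, ordered by WT) in the 4 genotypes, from group means with no batch term. Upf1 is highest in each genotype (1.48 in WT, 1.11 in DKO), and the Smg9 points run from 0.80 in WT to 0.22 in DKO.

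The rest of the pathway was read from lists of related genes. Of 14 other NMD and termination factors, 0 were called by edgeR in mRNA or footprints in any of the 6 contrasts (0 to 3 genes at unadjusted p under 0.05 in each). In DKO against WT, TE of 1 of the 14 was called higher, with 4.85% of all genes called. This was Pabpc1 (0.56 ± 0.125, adjusted p = 0.0215), the poly(A)-binding protein that favours normal termination. Of 9 genes of the exon junction complex and its periphery, Pnn, a splicing-linked component, had lower mRNA in DKO than in WT (-0.28 ± 0.064, adjusted p = 0.0147). Pnn (0.61 ± 0.118, adjusted p = 0.0113) and Acin1 (0.55 ± 0.131, adjusted p = 0.0246) had higher TE. Footprint estimates of the 9 had a median of 0.22, with -0.01 over all genes, and 0 were called (5 at unadjusted p under 0.05, with 17.06% of all genes). The 1 call in mRNA and the 2 in TE stand beside backgrounds of 5.23% and 4.85%. The core helicase gene Eif4a3 was at -0.05 ± 0.069 in mRNA. Of 17 decay enzymes and decapping factors, 1 was called in DKO against WT, in TE, with the same background of 4.85%. This was Skiv2l, the helicase of the SKI complex that feeds RNA to the cytoplasmic exosome, with lower TE (-0.41 ± 0.103, adjusted p = 0.0279). The exonuclease gene Xrn1 was at -0.19 ± 0.101 in mRNA (adjusted p = 0.260).

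Smg1 belongs to the PIKK kinase family. Of the 5 other members of that family 1 was called in DKO against WT mRNA, with 5.23% of all genes called. This was Atm, the DNA damage kinase (-0.39 ± 0.108, adjusted p = 0.0357). In TE 1 of 5 was called, again Atm and higher (0.52 ± 0.152, adjusted p = 0.0462), with a background of 4.85%. Atm footprints were at 0.13 ± 0.107. Mtor mRNA was at 0.19 ± 0.075 (adjusted p = 0.126), and the median of the 5 was -0.23, with -0.00 over all genes. In DKO against FXS the 5 mRNA values ran from -0.55 to -0.01, and 0 were called. Coding lengths were not used, so the part of transcript length in the mRNA values of Smg1 and these kinases was not tested.

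Among 12 mRNAs known as NMD-sensitive outside the machinery, such as Atf4, Ddit3 and Gadd45b, 10 could be tested in mRNA and TE and 11 in footprints. In every contrast and measure edgeR called 0. Their median mRNA difference was -0.17 in FXS, -0.07 in S6K1 and -0.07 in DKO, each against WT, with 3, 0 and 3 genes at unadjusted p under 0.05 (12.72%, 7.37% and 22.35% of all genes). Single mRNA values in DKO against WT ran from -0.44 to 0.41.

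The genes whose mRNA ran closest to Smg1 over the 16 mRNA libraries, by Pearson correlation of log2 CPM after centring on each batch, were Zfp445 (r = 0.936), Pnisr (0.932), Vamp5 (0.927), Vps13c (0.924) and Mdn1 (0.915), of 14214 genes. These are descriptions, since the libraries share genotypes and depth. The other NMD factors were not near it: Upf3b ranked 2698th (r = 0.366) and Upf2 2918th (0.345), while Upf1 (-0.534) and Smg9 (-0.545) ranked 12983rd and 13060th. Without regard to genotype, batch 5 libraries exceeded those of batches 6 to 8 by 0.39 for Smg1, at the 91.3rd percentile of all genes, and fell short by -0.35 for Smg9 and -0.23 for Upf1.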

How the data were processed

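Polyadenylated mRNA (TruSeq kit, per the labels' protocols) and ribosome footprints were sequenced from cortex. The authors deposited raw counts per gene symbol, named as counts over coding sequence, and comparison tables for DKO and FXS against WT. Per the file headers these hold a mean normalized count (a signal), log2 fold changes with SE, a test statistic (a score) and raw and adjusted p-values; their tool is not given in the sources used here. The submitters' processing notes name cutadapt 2.0, Bowtie2, TopHat2, RSEM and the build mm10, with no role.

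Counts were filtered by genotype with filterByExpr, scaled by TMM within each assay and tested with edgeR 4.0.16 (R 4.3.3, quasi-likelihood F test, robust) with batch and genotype over 14215 genes for mRNA and 13953 for footprints. TE was the footprint contrast minus the mRNA contrast in 1 model of 31 libraries over 13654 genes, with batch nested in assay. Calls needed an adjusted p (Benjamini-Hochberg, across the genes of that test) under 0.05. The 6 contrasts were each mutant against WT, DKO against each single mutant, and the interaction. Batch comes from the labels: libraries of different genotype in the same batch, centred on genotype, had a median correlation of 0.183 in mRNA (20 of 24 pairs above 0.1) against -0.104 across batches, and of 0.234 (16 of 20) against -0.0857 in footprints. No replicate pair was a duplicate (chi-square per degree of freedom at least 4.81).

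Each of the 9 members is named. Of 5 lists of related genes, those called are named, with Eif4a3 and Xrn1; 1 gene of that rule is not reported here. Members and lists were chosen with earlier results of these data known. Lists are described by counts and medians, with no set test. Alternatives were RLE scaling, no filter, DESeq2 1.42.0, limma voom 3.58.1, no batch term, only the genotypes compared, leaving out batch 5 or batch 1, and leaving out each library. The fits were tested on simulated data with changes put into the DKO mRNA libraries only, in 100 genes per size and with no batch effect. Recovery depends on how many genes change, so the shares below may not carry over to the real contrasts. Recovery of footprint changes was not simulated. In DKO against WT, mRNA fits recovered 48% of 1.3-fold and 68% of 1.5-fold changes, and TE fits 5% and 31%. A TE value that was not called therefore does not show that a change of such size was absent. Of unchanged genes, 10 of 13918 were called in mRNA and 5 of 13351 in TE. Columns of samples outside the labels numbered 0. Transcript starts were read from RefSeq promoter sequences (GRCm38.p6). Coding lengths were not used here, so levels are not compared between genes except as footprints per mRNA.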

Additional observations from a re-analysis of the deposited data

Results flagged for a closer look

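Of 54 groups of 4 or 5 libraries examined, chance would set about 5% apart, and 3 held a library far from the others by Dixon's criterion. Smg9 mRNA in the WT library of batch 5 was 30.53 CPM, against 41.21 to 42.99 in the other WT libraries (gap over range 0.857). Upf2 mRNA in the S6K1 library of batch 5 was 92.7 CPM, against 71.57 to 71.99 (0.98). Upf2 footprints in the FXS library of batch 3 were 83.91 CPM, against 61.95 to 65.27 (0.849). Without batch 5, the Smg9 TE value in DKO against WT was -0.42 (adjusted p = 0.0615, edgeR).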

How the results depend on the processing

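The replicate block here is the labelled batch, and it was in the main fit. Without it, 0 members were called in DKO against WT mRNA, 0 in DKO against WT TE and 0 in DKO against FXS mRNA, and over all genes the calls in DKO against WT dropped from 743 to 2 in mRNA, from 662 to 2 in TE and from 51 to 6 in footprints. Smg1 mRNA in DKO against WT was called in 14 of 15 alternatives, and Smg9 TE in 10 of 23. Counts of members called in DKO against WT mRNA (1 in the main fit) were 2 by DESeq2 and 1 to 2 without 1 library. In DKO against FXS mRNA the count of 1 became 0 by limma voom and 0 with only the genotypes compared, and was 0 to 1 without 1 library. In DKO against S6K1 mRNA the count of 0 became 1 by DESeq2. In DKO against WT TE the count of 1 became 0 with no filter on low counts, 0 with only the genotypes compared and 0 without batch 5, 2 by DESeq2 and 2 without batch 1, and was 0 to 3 without 1 library. The cause of these shifts was not tested. The footprint counts were 0 in every alternative. Over all genes in DKO against WT, DESeq2 called 1085 in mRNA, 290 in footprints and 1169 in TE; fits of these genotypes alone called 4 in footprints and 382 in TE; leaving out batch 5 left 480 in mRNA and 343 in TE, and leaving out batch 1 left 8 in footprints. Footprints have 3 libraries in DKO and in S6K1, with 2 DKO libraries in a batch shared with WT, which limits the footprint and TE contrasts.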
